A study of Mus musculus with 4 samples.

Results

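The DNA replication and S phase genes are 41 named genes whose products license replication origins, unwind and copy DNA, supply deoxynucleotides, assemble chromatin behind the fork and open the way from G1 into S phase. They were taken by gene symbol from the 22084 genes of the deposited tables, and all 41 were found there and tested. RNA was sequenced from the telencephalon of E13.5 mouse embryos of strain B6D2F2, in 4 libraries. KO26F and KO23M are labelled TCF20-/-, the knockout of Tcf20, a nuclear protein that acts as a transcriptional coregulator. WT22M is called WT in its title but TCF20+/- in its genotype field, so whether it is wild type or heterozygous is not settled. WT25F is labelled TCF20+/+. WT22M and WT25F keep a wild-type allele whichever label holds and are grouped as carriers. The labels give neither the deleted part of the gene nor a promoter or Cre, they do not say whether embryos were littermates, and they call the tissue telencephalic in one place and cerebral cortex in another. The last letter of a library's name, F or M, gives each arm 1 library of each letter.

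Every dividing cell copies its genome in S phase. Origins are licensed in G1, when the origin recognition complex, Cdc6 and Cdt1 load the ring of Mcm2 to Mcm7 proteins onto DNA, and the helicase is switched on at the start of S phase by Cdc45 and the GINS complex. Primase, the replicative polymerases, the sliding clamp and its loader then copy both strands. Transcription of many of these genes is driven by E2F factors once the retinoblastoma proteins are phosphorylated, and in the embryonic telencephalon the RNAs are mostly found in the dividing cells of the ventricular and subventricular zones.

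The libraries held 18127024 counts in KO26F, 18509743 in KO23M, 17791641 in WT22M and 17944649 in WT25F. Levels below are in CPM, a gene's reads per library size after TMM scaling, and fold changes are log2 values from edgeR's quasi-likelihood fit over 16252 genes. Tcf20 itself was at 97.0 CPM in KO26F and 105 CPM in KO23M, against 112 CPM in WT22M and 117 CPM in WT25F, a log2 fold change of -0.18 with an SE of 0.10 that did not pass the edgeR test (adjusted p = 1). Since the deleted part is not given, counts over the whole gene do not check the knockout label. Genes of regions bordering the telencephalon differed between libraries, including within an arm. The choroid plexus list summed to 1009 CPM in KO26F and 809 CPM in KO23M, against 211 CPM in WT22M and 957 CPM in WT25F, and the diencephalon list to 42.6 and 40.4 CPM in the KO libraries, against 39.3 CPM in WT22M and 96.3 CPM in WT25F. In whole tissue, a change in the number of dividing cells and a change in RNA per dividing cell cannot be told apart.

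Averaged over each arm, most replication genes were slightly higher in KO than in the carriers, and none of them passed the test. In KO against carriers, 0 of 41 members reached an edgeR adjusted p under 0.05, beside 10 of 16252 genes (0.0615%). DESeq2 and limma voom also called 0 members, beside 0.0677% and 0.0554% of all genes, and 2 members (4.88%), Rrm2 and Prim1, had an unadjusted edgeR p under 0.05, beside 2.86% of all genes. The log2 fold change was above 0 for 36 of 41 members, beside 50.7% of all genes, and the median was 0.11, beside 0.00 over all genes. In 16 members (39.0%) both KO libraries lay above both carriers, beside 13.9% of all genes, and in 1 member (2.44%), Orc1, both lay below, beside 2197 of 16252 genes. The other 24 members overlapped between the arms. The differences were small: 38 members differed by less than 1.2-fold, and the SE of a member's log2 fold change had a median of 0.12.

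**Figure D1:**
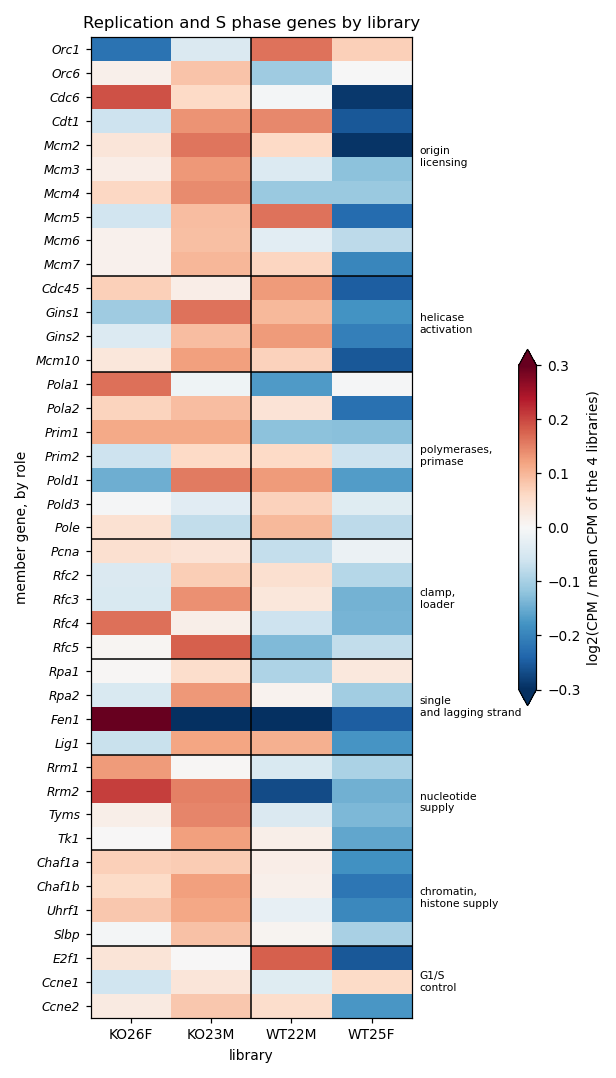
Level of each of the 41 members in each library as colour, on a log2 scale relative to that member's mean over the 4 libraries and grouped by role, with the KO libraries drawn left of the carriers. WT25F was the lowest library for 31 of 41 members, and Orc1 is the member with both KO libraries below both carriers.

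The summed level of the 41 members was 2587 CPM in KO26F and 2712 CPM in KO23M, against 2562 CPM in WT22M and 2315 CPM in WT25F. KO libraries averaged 2650 ± 88.2 CPM and carriers 2440 ± 175 CPM (SD, n = 2 each), a ratio of 1.09. The sum in WT22M lay close to that in KO26F, and WT25F lay below the other 3 libraries. WT25F was the lowest library for 31 of 41 members, beside 22.1% of all genes, and WT22M for 6, beside 26.6%. Without WT22M, 35 members had both KO libraries above WT25F, beside 29.8% of all genes, and 2 had both below, beside 30.3%. Without WT25F, 18 members had both KO libraries above WT22M, beside 32.9% of all genes, and 8 had both below, beside 30.6%.

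The size of the members' difference, and for KO26F the sign of their median, turned on which carrier was used. The comparisons below share the KO libraries or a carrier. Against WT25F alone, the members' median log2 fold change in KO was 0.21, with 38 of 41 above 0, beside 50.9% of all genes, and 0 called (smallest adjusted p = 0.766, edgeR), beside 56 genes called in all (0.345%). Unadjusted, 6 members (14.6%) had an edgeR p under 0.05, beside 3.43% of all genes. Against WT22M alone, the median was 0.04, with 26 of 41 above 0 and 0 called (smallest adjusted p = 0.243, edgeR), beside 104 genes (0.64%), and 1 member (2.44%) had an unadjusted p under 0.05, beside 4.28%. WT22M against WT25F gave a median of 0.13, with 33 of 41 above 0, beside 49.5% of all genes, and 0 called (smallest adjusted p = 0.682, edgeR), beside 116 genes (0.714%), and 4 members (9.76%) had an unadjusted p under 0.05, beside 4.88%. In these 3 comparisons the lone library is assumed to vary like the KO libraries. For KO against WT22M, the share of all genes above 0 was 50.7%.

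**Figure D2:**
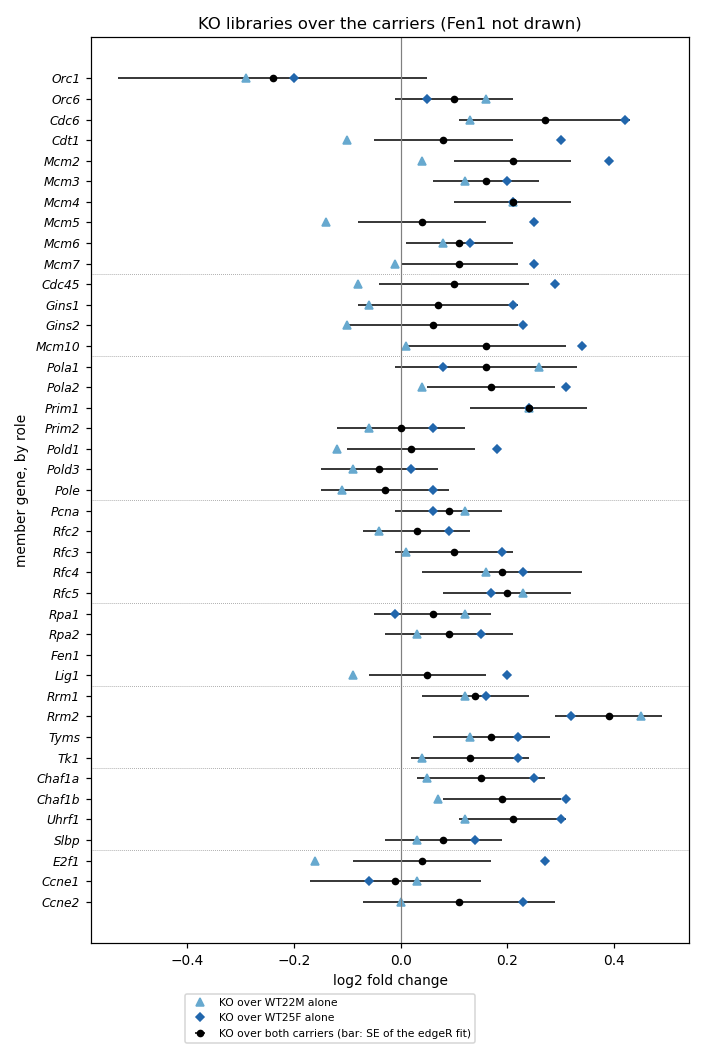
Log2 fold change of each member in KO against carriers (black, with the SE of the edgeR fit), KO against WT22M (triangles) and KO against WT25F (diamonds), by role; Fen1, with an SE of 0.57, is not drawn. Of the 40 members drawn, 37 lie right of 0 in KO against WT25F and 25 in KO against WT22M.

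Libraries of the same letter were also set side by side, 1 against 1, with intervals that cover counting error only. For KO26F over WT25F, the median log2 ratio of the members was 0.16, and the 95% interval lay above 0 for 21 of 41 members, beside 12.6% of all genes, and below 0 for 0, beside 13.3%. For KO23M over WT22M the median was 0.07, and the interval lay above 0 for 12 of 41 members, beside 13.4% of all genes, and below 0 for 1, E2f1, beside 11.8%. The 12 include Mcm2, Mcm3, Mcm4, Mcm6, Prim1, Rrm2 and Uhrf1. Such an interval narrows with a gene's counts, so these shares also depend on level. Across the letters, KO26F over WT22M had a median log2 ratio of -0.02, with 19 of 41 members above 0, beside 8253 of 16252 genes. KO23M over WT25F had a median of 0.25, with 37 of 41 members above 0, beside 8044 of 16252 genes.

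Rrm2 encodes the small subunit of ribonucleotide reductase, the enzyme that makes deoxynucleotides, and its RNA is abundant in S phase. It lies on chromosome 12 at 24708241 to 24714146 on the plus strand, in the coordinates of the files, which match GRCm38. Rrm2 was at 134 CPM in KO26F and 129 CPM in KO23M, against 96.4 CPM in WT22M and 105 CPM in WT25F. Both KO libraries stood above both carriers with a gap wider than the spread within either arm. KO libraries averaged 132 ± 3.91 CPM and carriers 101 ± 6.26 CPM (SD, n = 2 each), and the log2 fold change was 0.39 with an SE of 0.10. It had the smallest p of the 41 members, 0.000779 before adjustment, but did not pass after it (adjusted p = 0.633, edgeR). The difference had the same direction against each carrier, 0.32 over WT25F and 0.45 over WT22M, and within each letter, at 0.35 (95% interval 0.27 to 0.44) for KO26F over WT25F and 0.42 (0.33 to 0.51) for KO23M over WT22M.

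Promoters were read for the members with the smallest p that have an entry in RefSeq's GRCm38.p6 table of windows, 250 bases before to 50 after a gene's start. Rrm2 (chr12:24708004-24708303, plus strand), Prim1 (chr10:128014965-128015264, plus strand) and Uhrf1 (chr17:56303087-56303386, plus strand) are shown to let a reader see the letters upstream of these members. They were picked by p before adjustment, not by the size of the difference. Mcm6 (chr1:128359656-128359955, minus strand) and Mcm5 (chr8:75109259-75109558, plus strand) were chosen after their sequences were seen, to show windows rich in E2F words. Each runs 5′ to 3′ on the gene's strand. Capitals mark E2F words (TTTCCCGC, TTTCGCGC, TTTGCCGC or TTTGGCGC) and CCAAT boxes on either strand, and neighbouring words can overlap.
Rrm2: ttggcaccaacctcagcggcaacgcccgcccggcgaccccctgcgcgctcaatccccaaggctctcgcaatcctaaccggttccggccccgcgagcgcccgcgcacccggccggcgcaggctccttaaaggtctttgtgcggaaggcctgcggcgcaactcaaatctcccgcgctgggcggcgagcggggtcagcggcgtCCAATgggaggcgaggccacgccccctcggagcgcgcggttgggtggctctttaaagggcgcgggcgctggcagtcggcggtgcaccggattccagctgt
Prim1: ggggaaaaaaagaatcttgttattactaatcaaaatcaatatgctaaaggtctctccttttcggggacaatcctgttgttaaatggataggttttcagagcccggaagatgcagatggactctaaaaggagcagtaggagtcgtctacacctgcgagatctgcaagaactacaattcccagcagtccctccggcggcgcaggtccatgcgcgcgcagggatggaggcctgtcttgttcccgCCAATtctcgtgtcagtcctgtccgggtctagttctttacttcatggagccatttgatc
Uhrf1: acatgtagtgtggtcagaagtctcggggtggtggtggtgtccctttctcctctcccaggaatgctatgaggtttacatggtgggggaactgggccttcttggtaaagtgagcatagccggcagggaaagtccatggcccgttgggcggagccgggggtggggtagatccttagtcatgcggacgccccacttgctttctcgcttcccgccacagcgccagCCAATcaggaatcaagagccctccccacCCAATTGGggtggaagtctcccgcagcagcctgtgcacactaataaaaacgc
Mcm6: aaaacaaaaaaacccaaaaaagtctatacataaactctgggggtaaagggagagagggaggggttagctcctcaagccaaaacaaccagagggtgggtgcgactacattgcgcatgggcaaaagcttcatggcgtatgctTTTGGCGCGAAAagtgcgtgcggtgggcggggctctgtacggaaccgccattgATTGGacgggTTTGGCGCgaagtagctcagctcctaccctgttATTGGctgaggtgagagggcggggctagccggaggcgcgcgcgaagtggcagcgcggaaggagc
Mcm5: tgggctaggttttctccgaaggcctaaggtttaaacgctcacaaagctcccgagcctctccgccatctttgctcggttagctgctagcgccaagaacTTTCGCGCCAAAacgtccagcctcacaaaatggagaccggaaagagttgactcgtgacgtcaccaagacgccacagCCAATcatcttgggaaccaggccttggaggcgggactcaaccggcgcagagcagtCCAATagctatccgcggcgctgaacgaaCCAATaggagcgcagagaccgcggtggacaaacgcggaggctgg

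The windows of Rrm2 and Prim1 hold 1 CCAAT box each and no E2F word as spelled here, and the Uhrf1 window printed holds 3 CCAAT boxes, of which the last 2 overlap on opposite strands, and no E2F word. Uhrf1 has another window, chr17:56304063-56304362, not printed, and the E2F word counted for it is there. The Mcm6 window holds 3 E2F words, 2 of them overlapping on opposite strands, and the Mcm5 window 2 overlapping words. Of the 41 members, 34 have a window, 39 windows in all; Mcm4, Gins1, Gins2, Prim2, Pole, Rfc2 and Ccne2 have none. An E2F word stood in 13 of the 39 member windows (33.3%), beside 3.63% of the 14698 windows of genes tested and 2.26% of all 32851 windows. A CCAAT box stood in 56.4% of member windows, beside 37.1% for genes tested and 37.4% of all, and the letters TTTGAA, the cell cycle homology region of many mitotic genes, in 7.69% of member windows, beside 11.8% for genes tested and 17.9% of all. The 13 members with an E2F word, among them Cdc6, Cdt1, Mcm3, Mcm5, Mcm6, Mcm7, Orc1, Pola1 and Uhrf1, had a median log2 fold change of 0.10, with 11 above 0. The 21 members with a window but no such word had a median of 0.15, with 20 above 0. The members with the word therefore did not stand above those without it in these libraries, and a match or its absence says only which letters the window holds.

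Origin licensing was covered by 10 members, of which 9 had a log2 fold change above 0, beside 50.7% of all genes. Of the 10, 0 passed, beside 0.0615% of all genes, and 5 had both KO libraries above both carriers, beside 13.9%. The group's summed level was 838 CPM in KO26F and 898 CPM in KO23M, against 854 CPM in WT22M and 736 CPM in WT25F. KO libraries averaged 868 ± 42.9 CPM and carriers 795 ± 83.1 CPM (SD, n = 2 each). The median log2 fold change of the group was 0.23 against WT25F and 0.06 against WT22M.

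The Mcm2 to Mcm7 genes encode the subunits of 1 ring, yet they did not share 1 pattern over the libraries. Mcm2 was at 122 CPM in KO26F and 133 CPM in KO23M, against 124 CPM in WT22M and 97.0 CPM in WT25F, so that WT25F alone stood apart. Its log2 fold change was 0.21 with an SE of 0.11 (unadjusted p = 0.0834, edgeR), with 0.39 over WT25F and 0.04 over WT22M. Mcm4 was at 57.1 and 60.4 CPM in KO26F and KO23M, against 50.7 CPM in each of WT22M and WT25F. Here the carriers lay together below both KO libraries, and the log2 fold change was 0.21 with an SE of 0.11 (unadjusted p = 0.0643, edgeR) and the same against either carrier. Mcm3 was at 101 CPM in KO26F and 109 CPM in KO23M, against 96.8 CPM in WT22M and 91.5 CPM in WT25F, and Mcm6 was at 94.7 and 99.8 CPM in the KO libraries, against 91.8 and 88.9 CPM in the carriers. Both thus had no overlap between arms, with log2 fold changes of 0.16 and 0.11.

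Mcm5 and Mcm7 overlapped. Mcm5 was highest in WT22M, with 109 CPM in KO26F and 121 CPM in KO23M, against 127 CPM in WT22M and 96.6 CPM in WT25F. Its log2 fold change was 0.04 (SE 0.12) in KO against carriers, 0.25 over WT25F and -0.14 over WT22M. Mcm7, with the highest mean of all members, was at 246 CPM in KO26F and 261 CPM in KO23M, against 255 CPM in WT22M and 213 CPM in WT25F. Of its exon bases, 12.6% are shared with other genes. Per kilobase of exon Mcm7 averaged 55.1 CPM, beside 28.4 CPM for Mcm5, 26.5 CPM for Mcm3 and 20.1 CPM for Mcm6. Mcm2 averaged 17.1 CPM and Mcm4 15.2 CPM, though the proteins enter the ring in equal number. The length is that of all annotated exons of a gene merged, so these values also depend on the annotation. In all 6 subunits WT25F was the lowest library or tied with WT22M at the digits shown.

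**Figure D3:**
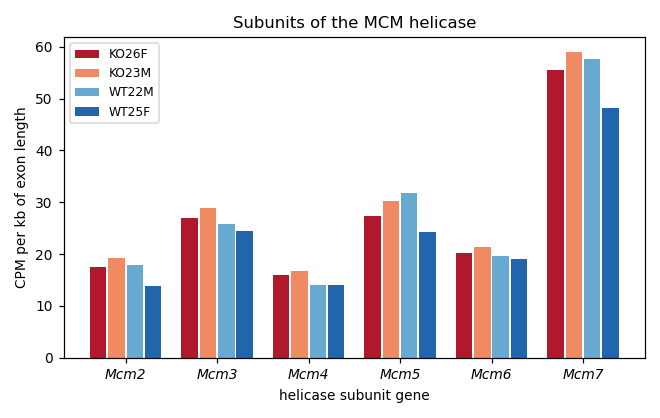
Level of the 6 MCM ring subunits in each library, in CPM per kilobase of exon on an axis from 0, with the KO libraries left of the carriers. For Mcm3, Mcm4 and Mcm6 both KO libraries lie above both carriers, whereas for Mcm2, Mcm5 and Mcm7 WT22M lies within or above the KO libraries.

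Of the loading factors upstream of the ring, Cdc6 and Orc1 had the lowest levels of the licensing members by length, at 2.9 and 0.891 CPM per kilobase of exon. Cdc6, the ATPase that joins the origin recognition complex to the helicase, was at 17.3 CPM in KO26F and 15.8 CPM in KO23M, against 15.1 CPM in WT22M and 12.4 CPM in WT25F, a log2 fold change of 0.27 with an SE of 0.16 (unadjusted p = 0.114, edgeR). Within letters it was 0.49 (95% interval 0.24 to 0.74) for KO26F over WT25F and 0.07 (-0.18 to 0.31) for KO23M over WT22M. Orc6, a small subunit of the origin recognition complex, was at 48.7 and 51.2 CPM in the KO libraries, against 44.8 CPM in WT22M and 48.2 CPM in WT25F, with no overlap and a log2 fold change of 0.10. Cdt1, which brings the ring to the origin, was at 39.1 CPM in KO26F and 44.8 CPM in KO23M, against 45.1 CPM in WT22M and 34.2 CPM in WT25F, and overlapped. Orc1, the largest subunit, ran the other way, with 2.66 CPM in KO26F and 3.01 CPM in KO23M, against 3.47 CPM in WT22M and 3.26 CPM in WT25F. That rests on 49 and 55 counts in the KO libraries and 61 and 59 in the carriers, and the log2 fold change of -0.24 has an SE of 0.29.

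Helicase activation was covered by Cdc45 and the GINS subunits Gins1 and Gins2, which complete the active helicase, and by Mcm10, which acts as the origin fires. All 4 had log2 fold changes above 0, from 0.06 to 0.16, beside 50.7% of all genes. All 4 overlapped between arms, beside 11801 of 16252 genes. Cdc45 was at 28.3 CPM in KO26F and 27.3 CPM in KO23M, against 29.4 CPM in WT22M and 22.7 CPM in WT25F, so that its highest and its lowest libraries were both carriers. Mcm10 was at 23.2 and 24.7 CPM in the KO libraries, against 23.8 CPM in WT22M and 19.0 CPM in WT25F. Gins1 was at 20.4 CPM in KO26F and 24.6 CPM in KO23M, against 23.5 CPM in WT22M and 19.4 CPM in WT25F. The group's median was 0.26 against WT25F and -0.07 against WT22M. Of the exon bases of Gins2, 67.3% are shared with Gse1 on the other strand, and since the strand setting of the counting is not given, its reads and those of Gse1 cannot be told apart there.

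The 7 polymerase and primase members split. Prim1, the catalytic subunit of primase, which lays down the RNA primer, was at 45.0 CPM in each KO library, against 38.2 CPM in WT22M and 38.1 CPM in WT25F. The libraries of each arm were almost identical, and the log2 fold change was 0.24 with an SE of 0.11 (unadjusted p = 0.0428, adjusted p = 1, edgeR) and was also 0.24 within each letter (95% interval 0.09 to 0.39 in both). Prim2, the other primase subunit, showed no such difference: 32.8 CPM in KO26F and 35.7 CPM in KO23M, against 35.7 CPM in WT22M and 32.8 CPM in WT25F. Pola2 and Pola1, subunits of the polymerase alpha that extends the primer, had log2 fold changes of 0.17 and 0.16. Pola2 was at 49.6 and 50.5 CPM in KO26F and KO23M, against 48.7 CPM in WT22M and 40.5 CPM in WT25F. Pola2 and Prim1 were the members of this group without overlap, 2 of 7 (28.6%), beside 13.9% of all genes with both KO libraries above both carriers. Pola1 was at 15.4 CPM in KO26F and 13.6 CPM in KO23M, against 12.2 CPM in WT22M and 13.7 CPM in WT25F.

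The catalytic subunits of the elongating polymerases did not differ beyond the spread. Pold1, of polymerase delta, was at 83.5 CPM in KO26F and 103 CPM in KO23M, against 101 CPM in WT22M and 82.4 CPM in WT25F. Its libraries with the letter M lay about alike and above those with the letter F, and its log2 fold change was 0.02. Pole, of polymerase epsilon, and Pold3, an accessory subunit of polymerase delta, had log2 fold changes of -0.03 and -0.04. The group's median was 0.02.

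Pcna, the sliding clamp that holds the polymerases on DNA, was at 202 CPM in KO26F and 201 CPM in KO23M, against 186 CPM in WT22M and 193 CPM in WT25F. Its arms did not overlap, with a log2 fold change of 0.09 and an SE of 0.10 (unadjusted p = 0.382, edgeR). At 81.3 CPM per kilobase of exon it was the most abundant member by length. A near copy of Pcna, Pcna-ps2 on chromosome 19 at 9283238 to 9284494, was chosen for mention after its values were seen, and reads could be split between the pair. Pcna-ps2 had 18 counts in KO26F and 399 in KO23M, against 380 in WT22M and 28 in WT25F, so that it was high in both libraries with the letter M and low in both with the letter F. With its counts added, Pcna was at 203 CPM in KO26F and 223 CPM in KO23M, against 207 CPM in WT22M and 194 CPM in WT25F, and the arms overlapped. The log2 ratio of the arm means of the sum was 0.08.

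**Figure D4:**
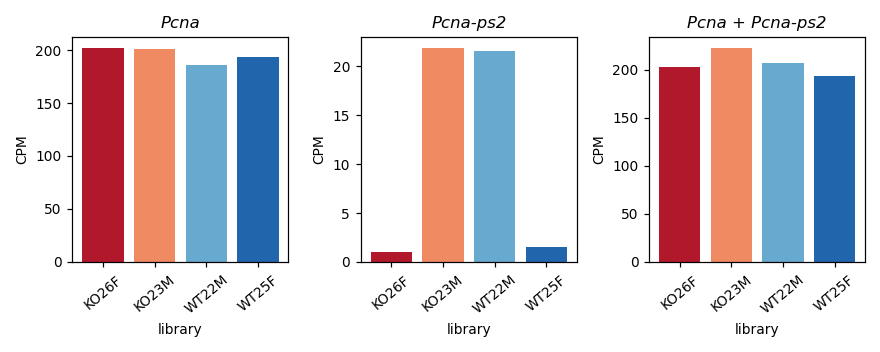
CPM of Pcna, of its near copy Pcna-ps2 and of the sum of both in each library, on axes from 0 that differ between the panels, with the KO libraries left of the carriers. Pcna-ps2 reaches 21.9 CPM in KO23M and 21.6 CPM in WT22M, against 0.977 CPM in KO26F and 1.54 CPM in WT25F, while Pcna lies between 186 and 202 CPM.

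The clamp loader members Rfc2, Rfc3, Rfc4 and Rfc5, subunits of the complex that opens the clamp and sets it around DNA, had log2 fold changes from 0.03 to 0.20. Rfc5 was at 39.7 CPM in KO26F and 44.8 CPM in KO23M, against 36.1 CPM in WT22M and 37.6 CPM in WT25F. Rfc4 was at 22.5 and 20.3 CPM in the KO libraries, against 19.2 CPM in WT22M and 18.2 CPM in WT25F. Both had no overlap between arms, whereas Rfc2 and Rfc3 overlapped. With Pcna, 3 of 5 clamp and loader members (60.0%) had both KO libraries above both carriers, beside 13.9% of all genes. Rfc5 had an unadjusted p of 0.104 (edgeR).

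Among the genes of single-stranded DNA and the lagging strand, Rpa1 and Rpa2 encode the large and the middle subunit of replication protein A, which coats unwound DNA. Rpa1 was at 75.2 CPM in KO26F and 77.9 CPM in KO23M, against 70.4 CPM in WT22M and 76.8 CPM in WT25F. Rpa2 was at 40.2 and 45.4 CPM in the KO libraries, against 41.8 CPM in WT22M and 38.6 CPM in WT25F. Lig1, the ligase that seals Okazaki fragments, was at 109 CPM in KO26F and 124 CPM in KO23M, against 123 CPM in WT22M and 101 CPM in WT25F. All of these overlapped, with log2 fold changes of 0.06, 0.09 and 0.05. Fen1, the flap nuclease that trims the fragments, had only 25 counts in KO26F and 9 in KO23M, against 11 in WT22M and 12 in WT25F. Its counted level of 0.324 CPM per kilobase of exon stood far below the 26.7 CPM per kilobase of Lig1. However, 84.2% of its exon bases are shared with genes on the other strand, Gm10143 and Tmem258. Since the strand setting of the counting is not given, these counts may not give the level of Fen1 RNA. Its log2 fold change of 0.52 has an SE of 0.57, so no difference was detectable in these counts.

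Nucleotide supply was the group with the largest ratio between the arms. The 4 members summed to 359 CPM in KO26F and 350 CPM in KO23M, against 304 CPM in WT22M and 301 CPM in WT25F, a ratio of 1.17, and here the carriers lay close to each other. KO libraries averaged 354 ± 5.85 CPM and carriers 303 ± 1.59 CPM (SD, n = 2 each). Rrm2, described above, made up most of the difference. Rrm1, the large subunit of the same enzyme, was at 132 CPM in KO26F and 121 CPM in KO23M, against 117 CPM in WT22M and 113 CPM in WT25F, a log2 fold change of 0.14 with an SE of 0.10. Tyms, which makes thymidylate, was at 48.5 and 53.0 CPM in the KO libraries, against 46.5 and 43.6 CPM in WT22M and WT25F. Rrm1 and Tyms had no overlap between arms, while Tk1, the thymidine kinase of the salvage pathway, overlapped at 43.6 and 47.4 CPM in the KO libraries, against 44.1 and 39.1 CPM in the carriers.

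Chromatin and histone supply had the largest median log2 fold change of the groups in KO against carriers, 0.17, with a ratio of summed levels of 1.13. The group's median was 0.28 against WT25F but 0.06 against WT22M, where nucleotide supply and the clamp and loader each had 0.12. Uhrf1, which brings the maintenance DNA methyltransferase to newly copied DNA, was at 127 CPM in KO26F and 130 CPM in KO23M, against 118 CPM in WT22M and 105 CPM in WT25F. Its log2 fold change was 0.21 with an SE of 0.10 (unadjusted p = 0.0516, edgeR), and the within-letter values were 0.28 (95% interval 0.19 to 0.37) for F and 0.14 (0.06 to 0.23) for M. Chaf1b and Chaf1a, subunits of the chromatin assembly factor that deposits histones at the fork, had log2 fold changes of 0.19 and 0.15. Chaf1b was at 47.9 and 50.1 CPM in KO26F and KO23M, against 46.5 CPM in WT22M and 39.6 CPM in WT25F. Chaf1a was at 39.7 and 39.8 CPM in the KO libraries, against 38.3 and 33.3 CPM in WT22M and WT25F, and shares 52.5% of its exon bases with Ubxn6 on the other strand. Neither overlapped between arms. Slbp, which binds the stem-loop of histone mRNAs, had a log2 fold change of 0.08 and overlapped.

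The G1 to S regulators gave the smallest ratio, 1.03. E2f1, the activating E2F factor, was at 50.6 CPM in KO26F and 49.3 CPM in KO23M, against 55.8 CPM in WT22M and 41.3 CPM in WT25F. Its KO libraries lay between the carriers, and the value in WT22M over WT25F, 0.43 (SE 0.18), was larger than that in KO against carriers, 0.04 (SE 0.13). Ccne2 and Ccne1, the E cyclins that drive Cdk2 at the start of S phase, were low. Ccne2 was at 9.82 and 10.2 CPM in the KO libraries, against 10.0 and 8.55 CPM in WT22M and WT25F, and Ccne1 was at 13.2 and 14.1 CPM, against 13.4 and 14.3 CPM. Both overlapped, with log2 fold changes of 0.11 and -0.01.

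**Figure D5:**
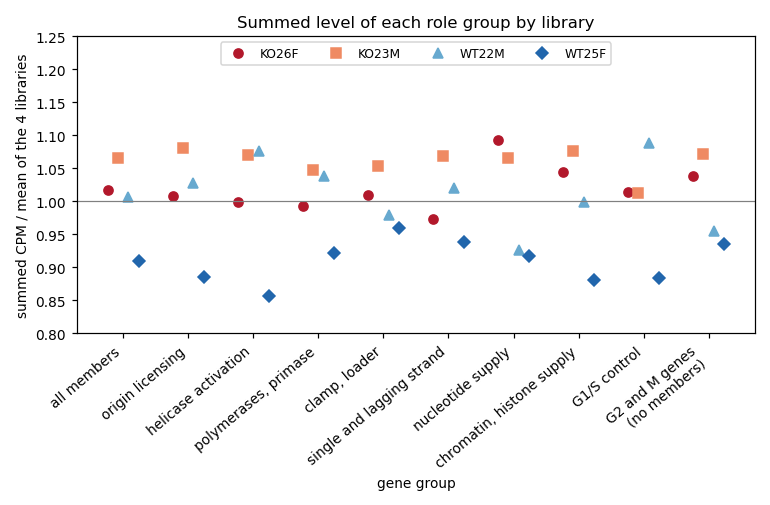
Summed CPM of the members of each role in each library, relative to the mean of the 4 libraries, with the KO libraries left of the carriers and the G2 and M genes, which are no members, at the right. WT25F is lowest in every role. Both carriers lie below both KO libraries for the clamp and its loader, nucleotide supply and chromatin supply, with the widest gap in nucleotide supply (359 and 350 CPM in KO, against 304 and 301 CPM in the carriers).

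Genes outside the 41 members were taken from lists of other replication, nucleotide supply, G1 to S control and chromatin genes. These lists are likewise not independent of earlier results. The G1 to S list holds genes that restrain S phase entry as well as genes that promote it. Of the 89 genes, 0 passed in KO against carriers, beside 0.0615% of all genes. The log2 fold change was above 0 for 67 of the 89, beside 50.7% of all genes, and the median was 0.07. In 33 (37.1%) both KO libraries lay above both carriers. That share stands beside 39.0% of the 41 members and 13.9% of all genes. Clspn, the fork protein claspin, was at 37.1 and 30.4 CPM in the KO libraries, against 28.7 and 25.6 CPM in WT22M and WT25F, a log2 fold change of 0.31 with an SE of 0.13 (unadjusted p = 0.0262, edgeR). E2f2, another activating E2F factor, had 0.28, and Usp1, a deubiquitinase that acts on ubiquitinated Pcna, 0.24. On the lower side, Dtymk, the thymidylate kinase, had -0.10, and Ccnd1, a D cyclin, -0.13.

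Rpa3, the small subunit of replication protein A, went furthest the other way. It was at 23.3 CPM in KO26F and 24.3 CPM in KO23M, against 33.7 CPM in WT22M and 32.0 CPM in WT25F. KO libraries averaged 23.8 ± 0.704 CPM and carriers 32.9 ± 1.23 CPM (SD, n = 2 each), a log2 fold change of -0.46 with an SE of 0.13 (unadjusted p = 0.00144, adjusted p = 0.799, edgeR). Its partners Rpa1 and Rpa2, above, had 0.06 and 0.09.

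The mitotic genes of G2 and M phase lay on the same side as the replication genes. All 20 of that list had a log2 fold change above 0, beside 50.7% of all genes, and 0 passed, beside 0.0615%. In 9 (45.0%) both KO libraries lay above both carriers, beside 39.0% of the 41 members and 13.9% of all genes. The 20 genes summed to 1554 CPM in KO26F and 1605 CPM in KO23M, against 1430 CPM in WT22M and 1401 CPM in WT25F, a ratio of 1.12. Here the median against either carrier was about alike, 0.16 over WT25F and 0.17 over WT22M, where that of the 41 members was 0.21 and 0.04. Mki67, the proliferation marker, was at 172 CPM in KO26F and 149 CPM in KO23M, against 125 CPM in WT22M and 144 CPM in WT25F, a log2 fold change of 0.25 with an SE of 0.11 (unadjusted p = 0.0255, edgeR). In the promoters of that list TTTGAA stood in 12 of the 17 windows of the list (70.6%) and an E2F word in 1 (5.88%).

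Markers of the cell types in the tissue also differed in level beside these values. Radial glia markers, of the cycling cells at the ventricle, summed to 1796 CPM in KO26F and 1952 CPM in KO23M, against 1933 CPM in WT22M and 1828 CPM in WT25F. Their sums so overlapped, and the genes were mixed, with 6 of 10 above 0, beside 50.7% of all genes, and a median log2 fold change of 0.05. Intermediate progenitor markers summed to 1074 and 1083 CPM in the KO libraries, against 994 CPM in WT22M and 929 CPM in WT25F, with 8 of 8 genes above 0 and a median log2 fold change of 0.16. Markers of ventral GABAergic cells summed to 1325 and 1406 CPM in the KO libraries, against 1181 and 1199 CPM in WT22M and WT25F, with 10 of 10 above 0. Neuron markers summed to 7335 and 7474 CPM in the KO libraries, against 7760 and 7705 CPM in the carriers, with 2 of 10 above 0. Mesenchyme markers were at 331 and 356 CPM in the KO libraries, against 428 and 413 CPM in the carriers, with 0 of 10 above 0. Endothelium and pericyte markers summed to 366 and 382 CPM in the KO libraries, against 425 and 415 CPM in WT22M and WT25F, with 0 of 10 above 0. Microglia and macrophage markers summed to 92.4 and 99.2 CPM in the KO libraries, against 123 CPM in WT22M and 103 CPM in WT25F, with 2 of 10 above 0. Erythroid markers summed to 758 and 709 CPM in the KO libraries, against 611 CPM in WT22M and 1021 CPM in WT25F, and overlapped. The part of these cell types in the members' values was not tested.

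The authors' deposited tables compare KO26F, KO23M and WT22M, each 1 library, with WT25F, by a test the sources used here do not name. In the authors' deposited table for KO26F, 17 members (41.5%) had an adjusted p under 0.05, all higher, beside 13.7% of all genes, or 7.26% counting higher ones only. In the authors' deposited table for KO23M these were 25 members (61.0%), all higher, beside 22.1%, or 9.07% higher. In the authors' deposited table for WT22M these were 16 members (39.0%), beside 22.4%, 13 of them higher, beside 8.93%. The 3 tables share WT25F, which was the lowest library for most members. None of the 41 members carried the authors' own mark of significance in the authors' deposited tables, beside 1.96% of all genes in that for KO26F, 2.9% for KO23M and 3.62% for WT22M.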

How the data were processed

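RNA-seq libraries were made from total RNA, per the labels' protocols. The submitters' processing notes name the build mm9, TopHat2 2.0.12, Bowtie2 2.2.3 and HTSeq 0.6.0. The files' coordinates match GENCODE M21 (GRCm38) for 39 of 41 members. The authors deposited 3 tables, each of 1 library with WT25F, holding a raw count per gene and library, per the file headers. The deposited tables also hold a CPM value scaled to the library total, a log2 fold change, and a p-value with its adjusted value; the sources used here name neither that test nor the settings for strand and multiple matches. Tables were joined by gene identifier, a gene missing from a table being set to 0. The limit that a count of 0 allows, 3 counts, is 0.162 to 0.169 CPM; it and all intervals cover counting error only.

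Counts were tested with edgeR 4.0.16 (quasi-likelihood, robust, TMM, filterByExpr, Benjamini-Hochberg threshold 0.05). KO against carriers used 2 libraries an arm; comparisons with a lone carrier came from a fit of 3 groups. Separate litters are not stated, and p-values then measure only the spread between these samples, which may be technical. Alternatives used DESeq2 1.42.0, limma 3.58.1, other scalings and filters, and left out each library. The scripts were tested on simulated data. Sequence letters were searched by script in the RefSeq windows.

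The members and lists were chosen with earlier results of these data known. All members are accounted for; values in every library are printed for the 3 members of each role with the smallest p and for its most abundant member, and, per list of other genes, the gene with the smallest p in each direction is named, except for 1 that is not reported here. Others named (Mcm5, Mcm6, Pcna-ps2, members printed beside a partner and genes that overlap a member) were chosen after their values were seen.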

Additional observations from a re-analysis of the deposited data

Results flagged for a closer look

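E2f1 went opposite ways within the letters. KO26F over WT25F gave a log2 ratio of 0.29 (95% interval 0.15 to 0.43, counting error only), and KO23M over WT22M gave -0.18 (-0.31 to -0.05). Each value is 1 library against 1, and the difference between the letters was not tested. E2f1 was the only member of the 41 whose intervals lay on opposite sides of 0 in the letters F and M.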

How the results depend on the processing

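In KO against carriers, 5 genes were called higher and 5 lower. Scaling by library totals called 3 lower, and leaving out 1 library called 18 to 73 higher and 23 to 58 lower; the causes were not tested. No member was called under these settings, and the members' median log2 fold change ranged from 0.04 without WT25F to 0.21 without WT22M. Members with both KO libraries above the carriers, 16 of 41, numbered 35 (2 below) without WT22M and 18 (8 below) without WT25F, settings chosen after seeing the data. KO against WT25F called 27 higher and 29 lower. With no filter it called 0 and 0, with the spread from 2 arms 4 and 2, and with DESeq2 13 and 10. WT22M against WT25F called 29 higher and 87 lower, but 0 and 0 with no filter, 0 and 0 with the spread from 2 arms, and 11 and 22 with DESeq2. With the title letter as a replicate block, 61 genes were called higher and 62 lower (0.757% of all genes), among them 1 member, Rrm2 (adjusted p = 5.43e-05, edgeR; 0.0847 to 1 over the other alternatives), and Rpa3 (0.0103) and Mki67 (0.0274). The letters are not said to pair the samples. Deviations of same-letter libraries from their arm means correlated at 0.226 over 16252 genes. With 2 libraries an arm this is a single value, equal for both letters and -0.226 for the crossed pair by construction. Of 418 values of the 35 genes that the rule for named genes picks under the alternatives, 403 kept their sign or were 0. With 2 libraries an arm, the SE of a member's log2 fold change had a median of 0.12 and reached 0.29 in Orc1 and 0.57 in Fen1, the members with the fewest counts, which limits what could be called.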
